A study of Drosophila melanogaster with 2 samples.

Results

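The protein-coding genes of Drosophila melanogaster named as eukaryotic translation initiation factors (eIF) or elongation factors (eEF) were examined for chromatin immunoprecipitation sequencing (ChIP-seq) peaks of H2.0 at their promoters. Every protein-coding gene of the Ensembl annotation whose name starts with eIF or eEF was taken, which gave 52 of 13968 genes, 44 of them eIF and 8 eEF. The samples came from whole embryos 0 to 24 h old of the strain H2.0-GFP, whose transgene makes the homeodomain protein H2.0 as a fusion with eGFP, and the fusion was precipitated with an antibody against GFP. Chromatin had been sonicated, and fragments of 200 to 800 bp were taken. There was 1 group of 2 biological replicates, sex was not collected, and no other genotype, stage or treatment was compared. Because whole embryos of all stages in that window were pooled, a peak cannot be placed in a tissue or stage, and the peak lists hold no expression values with which the labelled material could be checked against markers. No control library entered the comparisons made here, and whether H2.0 itself occupies a peak was not tested.

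Translation starts when eIF2 brings the initiator tRNA to the small ribosomal subunit, where eIF1, eIF1A, eIF3 and eIF5 steer the search for the start codon. The mRNA reaches the ribosome through the cap-binding protein eIF4E, the scaffold eIF4G and the helicase eIF4A, and eIF5B then joins the large subunit. The elongation factors eEF1 and eEF2 deliver aminoacyl-tRNA and move the ribosome along. Several of these factors have duplicated genes in the fly, some of them with germline roles. H2.0 is known as a regulator in the visceral musculature, while DREF, which binds the DNA replication-related element (DRE, TATCGATA), is a factor of many housekeeping promoters.

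A gene was called covered when at least 1 peak summit of the thresholded list of both replicates together lay within 500 bp of a transcript start of its own. That list held 4590 peaks past an irreproducible discovery rate (IDR) of 0.01, and 4565 of them lay on the chromosome arms. By this rule 14 of the 52 factor genes were covered (26.9%), against 18.2% of all protein-coding genes. The covered genes were eIF1, eIF2A, eIF2Balpha, eIF2D, eIF3a, eIF3c, eIF3h, eIF3m, eIF4G2, eIF5B, eIF6, eEF1alpha1, eEF1gamma and eEF5. Genes are not replicates of a condition, so the shares are descriptions of these lists and no test was made of the difference. Peak strength is given as the authors' signal value, which is not scaled between lists and carries no counting error, because no reads were analysed and the depth is unknown.

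Sequence from build dm6 is shown for promoters and summits where the DRE or its core ATCGATA lay close to the peak, since this motif was shared by more of the covered summits than any other searched. Each run is written 5′ to 3′ on the strand of the gene, and capitals mark the DRE or its core. Promoter runs end 20 bases into the transcript, and summit runs reach 50 bp to each side of the summit.
eEF1gamma promoter, chr3R:29220012-29220191 (+): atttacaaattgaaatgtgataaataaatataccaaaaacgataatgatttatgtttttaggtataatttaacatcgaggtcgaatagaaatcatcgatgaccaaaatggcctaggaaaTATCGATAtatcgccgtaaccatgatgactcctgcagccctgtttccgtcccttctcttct
eIF3a promoter, chr3R:4433876-4433974 (-): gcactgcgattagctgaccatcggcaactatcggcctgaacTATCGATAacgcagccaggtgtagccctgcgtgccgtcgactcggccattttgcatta
eIF2Balpha summit, chr3R:29935882-29935982 (-): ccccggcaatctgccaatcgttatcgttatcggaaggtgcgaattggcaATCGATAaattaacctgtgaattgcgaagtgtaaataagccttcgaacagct
eIF1 summit, chr3L:3222965-3223065 (+): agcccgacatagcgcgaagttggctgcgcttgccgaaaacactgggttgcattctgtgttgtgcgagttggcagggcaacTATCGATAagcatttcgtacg
eIF4G2 summit, chr3R:23819269-23819369 (-): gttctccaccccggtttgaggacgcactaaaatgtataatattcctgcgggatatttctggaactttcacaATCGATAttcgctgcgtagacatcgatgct
In eIF2Balpha the core lay 2 bp from the summit, in eIF3a 8 bp, in eEF1gamma 22 bp, in eIF4G2 24 bp and in eIF1 33 bp.

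The same motif also stood in promoters without a peak. The genes of the alpha and gamma subunits of eIF2 are shown because neither was covered, although both held the full DRE. Capitals mark the DRE, its core and, in eIF2alpha, a reverse complement of the core GGTCACACT of the promoter factor M1BP.
eIF2alpha promoter, chrX:16446974-16447153 (-): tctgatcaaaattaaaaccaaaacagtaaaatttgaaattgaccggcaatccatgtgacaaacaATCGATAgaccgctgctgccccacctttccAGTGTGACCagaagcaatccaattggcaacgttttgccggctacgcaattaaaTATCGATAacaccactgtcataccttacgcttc
eIF2gamma promoter, chr3R:15263439-15263561 (-): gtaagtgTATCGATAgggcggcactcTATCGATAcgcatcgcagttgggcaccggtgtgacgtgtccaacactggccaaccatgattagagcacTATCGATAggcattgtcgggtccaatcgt
No ranked peak of any strength lay within 500 bp of eIF2alpha in the pooled list or in either replicate.

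Summit windows without a DRE are shown for contrast. The window at eIF2D held none of the motifs searched and had 22.8% GC. That at eIF4EHP, whose peak is described further below, had 17.8% GC and held the homeodomain core TAATTA and the TATA box TATAAA, in capitals, with 1 copy of each overlapping the other. These windows do not stand for all summits without a DRE. Among covered genes without the core in this window, eIF2D had the lowest GC. Others had 24.8% at eIF3c, 38.6% at eIF3h, 49.5% at eEF5 and 52.5% at eEF1alpha1.
eIF2D summit, chr3R:29151812-29151912 (-): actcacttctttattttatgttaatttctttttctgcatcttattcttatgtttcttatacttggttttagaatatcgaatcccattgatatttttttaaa
eIF4EHP summit, chr3R:24109152-24109252 (-): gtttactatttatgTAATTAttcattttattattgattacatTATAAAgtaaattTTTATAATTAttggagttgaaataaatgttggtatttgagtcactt

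The counts by factor group stand beside 18.2% of all protein-coding genes covered in the pooled list and 10.7% in both replicate lists. The groups are small, and no test was made between them. The ternary complex eIF2, which carries the initiator tRNA, had 0 of its 3 genes covered. The strongest ranked pooled peaks near their starts had signal values of 39.1 at eIF2beta and 37.5 at eIF2gamma, and IDR values of 0.618 and 0.136. The eIF2gamma peak lay 65 bp upstream of the start. There the signal value was 12.8 in replicate 1, at another position 280 bp upstream, and 36.2 in replicate 2, at the same position as in the pooled list. These peaks were thus ranked but did not reach the threshold in either replicate.

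Of the 5 genes of eIF2B, the exchange factor that reloads eIF2 with GTP, 1 was covered (20%, against 18.2% of all genes). This was eIF2Balpha, which encodes a regulatory subunit. The signal value at its summit was 75.2, which exceeded 32.7% of the thresholded pooled peaks, and the summit lay 44 bp upstream of its start and 46 bp from that of the neighbouring gene Vps13B, which is transcribed the other way. In replicate 2 the peak had a signal value of 61.4 and was in the thresholded list. In replicate 1 no ranked peak lay within 200 bp of the summit, so the call rests on 1 replicate. The other eIF2B genes, among them that of the catalytic subunit epsilon, had ranked peaks of 11.7 to 29.0 only. At eIF2Bbeta the nearest thresholded summit, with a signal value of 1983, lay 680 bp from the start and so outside the promoter distance. Among covered genes eIF1 had the most distant summit, 326 bp from its start, with a signal value of 163.

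Factors of start-site selection and subunit joining had 2 of 4 genes covered (50%, against 18.2% of all genes). Both were in each replicate list (against 10.7% of all genes). The strongest was eIF5B, the GTPase that joins the large subunit, with a signal value of 219 on arm 3L from 3460665 to 3460772. Its values were 147 in replicate 1 and 81.5 in replicate 2. The summit lay 136 bp upstream of an own start, inside the 5′ UTR of another transcript of the gene, and no other gene's start was within 500 bp. The gene of eIF1, which guards the choice of start codon, had a signal value of 163, with 42.4 in replicate 1 and 123 in replicate 2. That peak lay 326 bp upstream of eIF1 but 55 bp from the start of RpL28, a ribosomal protein gene on the opposite strand, so both starts lie within the promoter distance of this summit. The gene of eIF1A, the partner of eIF1 on the small subunit, had a ranked peak of 32.1 below the threshold, and eIF5, which promotes GTP hydrolysis by eIF2, had none in the pooled list.

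The large complex eIF3, which holds the small subunit and organises the other factors on it, had 4 of 16 genes covered (25%, against 18.2%). The genes of eIF3a and eIF3c, both core subunits, differed in strength. The eIF3c summit had a signal value of 174, with 111 in replicate 1 and 69.6 in replicate 2, and lay 48 bp upstream of the start. The eIF3a summit had 73.8, with 40.4 in replicate 2 and a value of 30.1 in replicate 1 that did not reach the threshold (IDR 0.0551). It stood 43 bp upstream of eIF3a and 27 bp from the start of CG1074, so the nearest start was not that of the factor gene. At eIF3h, which encodes a peripheral subunit, 2 summits were called. The stronger, with a signal value of 138, lay 314 bp downstream of a start in an intron and was in both replicate lists, at 55.7 and 99.5. The weaker, at 63.9, lay 75 bp upstream of that start and 12 bp from the start of senju, and was thresholded in replicate 2 alone. The summit at eIF3m had 37.7, the lowest of the 14, with a deposited q-value of 0.899, and it was in neither replicate list.

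Each of the 12 other eIF3 genes either had a ranked peak below the threshold or had none in the pooled list. The highest of these stood at eIF3f1 with 40.5, followed by eIF3e with 37.6 and eIF3k with 36.8, the last 13 bp upstream of its start. No ranked pooled peak lay near eIF3d2, eIF3g2 or eIF3j. Genes of core and peripheral subunits were therefore found on both sides of the threshold.

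The cap-binding family, the eIF4G scaffold and the eIF4A helicase with its cofactors had 1 of 13 genes covered (against 18.2% of all genes). None of the 7 eIF4E genes was covered in the pooled list. However, 1 of them, eIF4EHP, had a strong peak that the thresholded list leaves out for a reason that is not stated. This gene encodes a cap-binding protein that blocks translation of chosen mRNAs, among them caudal in the early embryo. Its ranked pooled peak had a signal value of 655, a score past the threshold, and a summit 242 bp upstream of its start and 134 bp from that of CG18428. The value was 430 in the ranked list of replicate 1, whose thresholded list also leaves it out, and 228 in replicate 2, where it was in the thresholded list. The remaining eIF4E genes had ranked pooled peaks of 5.01 at eIF4E3, 15.5 at eIF4E4 and 30.5 at eIF4E6, and none at eIF4E1, eIF4E5 and eIF4E7.

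Of the scaffold genes, eIF4G2, known for its role in male meiosis, was covered with a signal value of 47.8. That peak lay 82 bp from its start and equally 82 bp from that of CG33111, had a deposited q-value of 0.567, and was in neither replicate list. Its paralog eIF4G1, the general scaffold, is on chromosome 4 and had no ranked peak within 500 bp in any list. On that chromosome only 2 of 80 protein-coding genes were covered (2.5%). The gene of the helicase eIF4A was not covered in the thresholded list, although its ranked pooled peak of 60.3, 65 bp upstream of a start, had an IDR of 0.00279. In replicate 1 that peak had 23.4 and an IDR of 0.184, and in replicate 2 it had 40.2 and an IDR of 0.00594, yet the thresholded list of replicate 2 also leaves it out. Its cofactor genes had no ranked pooled peak, in eIF4B and eIF4H1, or a weak one of 22.0 in eIF4H2. However, eIF4B lies near the end of arm 3L, and the nearest thresholded summit was 4979370 bp away. The lack of a thresholded summit there is thus shared by a long stretch around the gene.

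The 3 remaining initiation genes, whose products act outside the main pathway, were all covered (against 18.2% of all genes). The protein eIF6 keeps large subunits from joining too early, and its gene had the highest signal value of all 52, at 1206, which exceeded 99.7% of the thresholded pooled peaks. The values were 689 in replicate 1 and 517 in replicate 2, each the highest of any factor gene in that replicate. The peak, on arm 2R from 23850270 to 23850534, lay 105 bp upstream of eIF6 and 76 bp from the start of the antisense RNA gene asRNA:CR45928, inside an annotated exon, and which of these starts it belongs to cannot be told apart. The gene of eIF2A, a factor of non-canonical initiation in mammals, had 92.2, with 49.4 and 45.1 in the replicates. The eIF2A summit lay 21 bp upstream of an internal start, inside a 5′ UTR and downstream of the first start of the gene. The gene of eIF2D, known from mammals to deliver tRNA and recycle ribosomes, had 87.0, with 42.5 in replicate 1, which missed that threshold (IDR 0.853), and 49.2 in replicate 2.

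**Figure D1:**
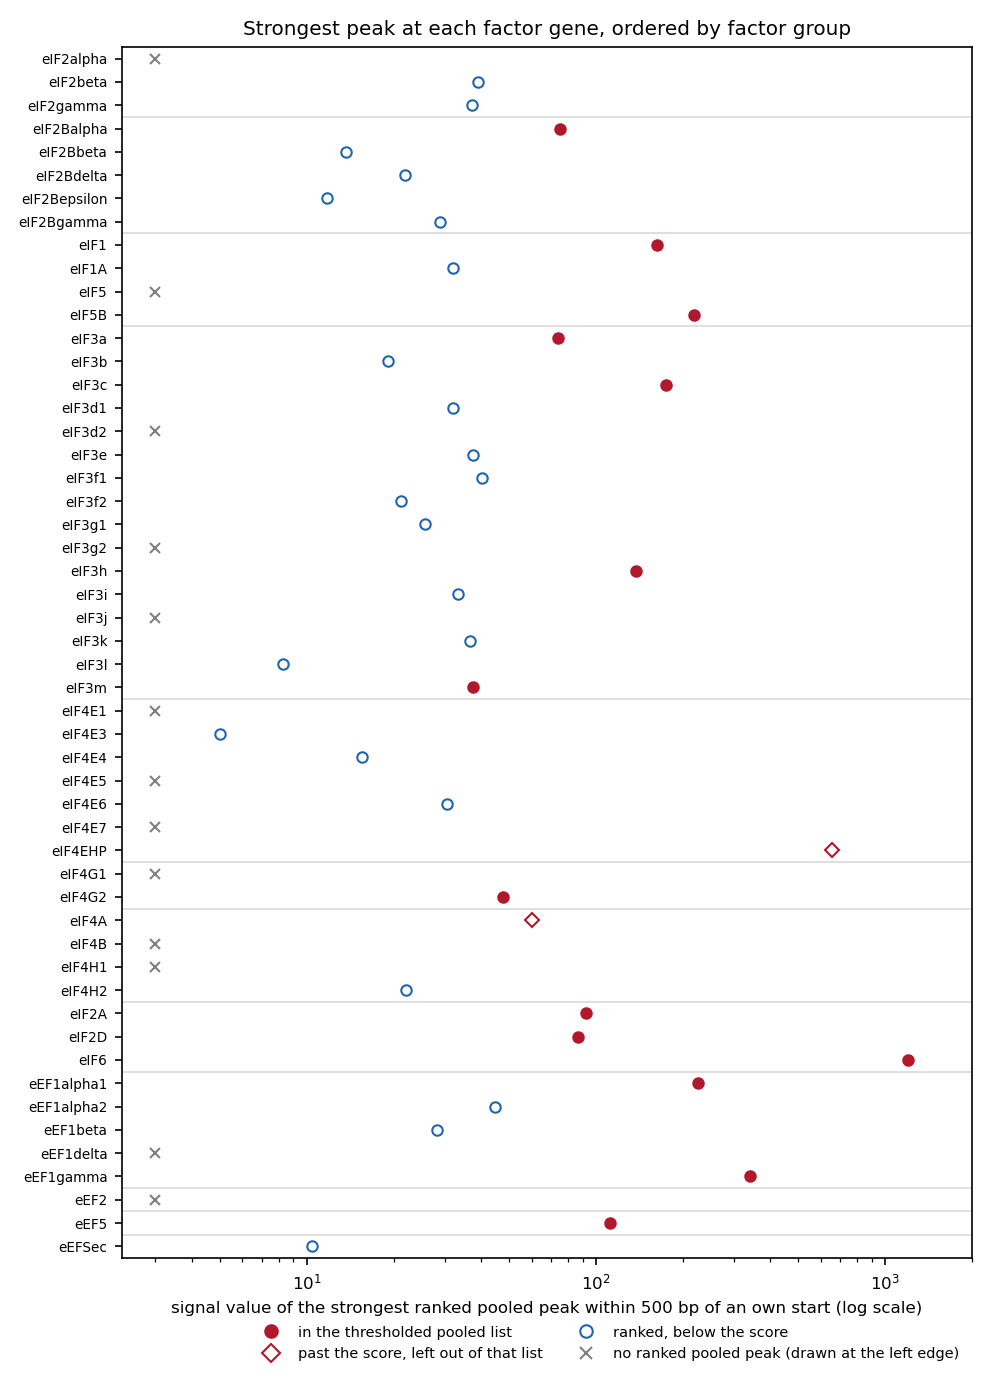
Signal value (log axis) of the strongest ranked pooled peak within 500 bp of an own start for each of the 52 genes, 1 row a gene, with grey lines between factor groups. Filled red points are the 14 covered genes, from 37.7 at eIF3m to 1206 at eIF6, open diamonds are eIF4EHP and eIF4A, and grey crosses are the 13 uncovered genes with no ranked pooled peak.

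Among the elongation factors 3 of 8 genes were covered (37.5%, against 18.2% of all genes). All 3 were in both replicate lists (against 10.7% of all genes). The strongest was eEF1gamma, a structural subunit of the exchange complex that recharges eEF1alpha, with a signal value of 341 on arm 3R from 29220069 to 29220230. Its replicate values were 148 and 185, and the summit lay 15 bp upstream of the start. The gene eEF1alpha1, whose product carries aminoacyl-tRNA to the ribosome, had 226, with 107 in each replicate. That summit lay 69 bp upstream of an internal start, within an intron of a longer transcript. The gene eEF5, which encodes the hypusine-bearing factor also called eIF5A, had 112, with 51.6 and 57.6 in the replicates and a summit 20 bp upstream of the start. No other gene's start lay within 500 bp of any of these 3 summits.

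The paralog eEF1alpha2 had a ranked pooled peak of 44.9 located 5 bp upstream of a start, the highest below the threshold among the factor genes, with an IDR of 0.0338. Its values were 17.6 in replicate 1 and 24.3 in replicate 2, neither past the threshold. The translocase gene eEF2 had no ranked pooled peak within 500 bp and none in replicate 1, but a peak of 67.8 in the thresholded list of replicate 2, 8 bp downstream of a start. The genes of eEF1beta, at 28.2, and of the selenocysteine factor eEFSec, at 10.4, had ranked pooled peaks below the threshold, and eEF1delta had none in the pooled list. In the replicates, eEF1beta had ranked peaks of 13.8 and 24.6, eEFSec had 8.28 in replicate 1 alone and eEF1delta had 10.4 in replicate 2 alone, none of them past the threshold.

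Duplicated families and single genes were counted apart, and the share of all protein-coding genes covered, 18.2%, lay between them. Of the 19 genes that belong to a duplicated family (eIF4E, eIF4G, eIF4H, eIF3d, eIF3f, eIF3g and eEF1alpha) 2 were covered, or 10.5%, and of the other 33 genes 12 were, or 36.4%. The eIF4E family alone makes up 7 of these 19 genes, and eIF4EHP is counted as uncovered there. In the pairs of eIF3d, eIF3f, eIF3g and eIF4H neither copy was covered. In the pair of eEF1alpha the copy covered was eEF1alpha1, and in that of eIF4G it was eIF4G2. The other eIF4G copy is on chromosome 4, where 2.5% of all protein-coding genes were covered. Whether copies differ in covered share beyond chance was not tested.

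The replicates were compared through their separate lists of 3059 and 3124 peaks. The list of replicate 1 covered 9 factor genes (17.3%, against 12.8% of all genes) and that of replicate 2 covered 14 (26.9%, against 14.5%). Both lists covered 9 (17.3%, against 10.7%), namely eEF1alpha1, eEF1gamma, eEF5, eIF1, eIF2A, eIF3c, eIF3h, eIF5B and eIF6. The replicate 2 list alone covered eIF2Balpha, eIF2D, eIF3a, eIF4EHP and eEF2, and no gene was covered by the replicate 1 list alone. Signal values are not scaled between the lists, so only the spread of their ratio was described. Over the 9 shared genes the log2 ratio of replicate 1 to replicate 2 had an SD of 0.75, with eIF1 at its low end and eIF5B at its high end. The conservative list of both replicates covered 11 factor genes (21.2%, against 17.7%) and lacked eIF2Balpha, eIF3m and eIF4G2.

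**Figure D2:**
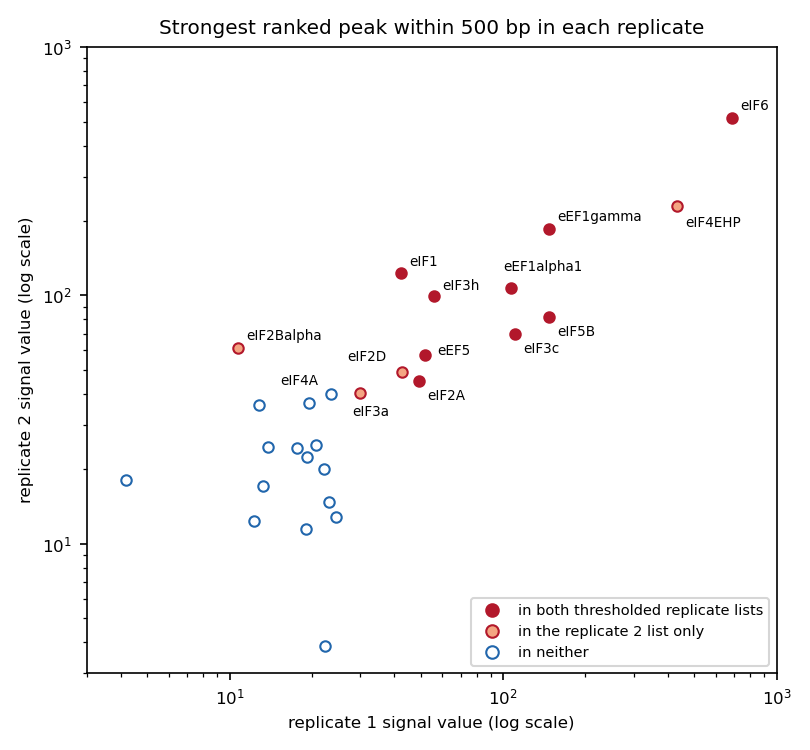
Signal value of the strongest ranked peak within 500 bp of an own start in replicate 1 (x) against replicate 2 (y), both on log axes, for the 28 factor genes with a ranked peak in both, coloured by the thresholded replicate lists that hold the gene. The 9 genes in both lists run from 42.4 to 689 in replicate 1, and eIF4EHP stands near the top with 430 and 228.

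**Figure D3:**
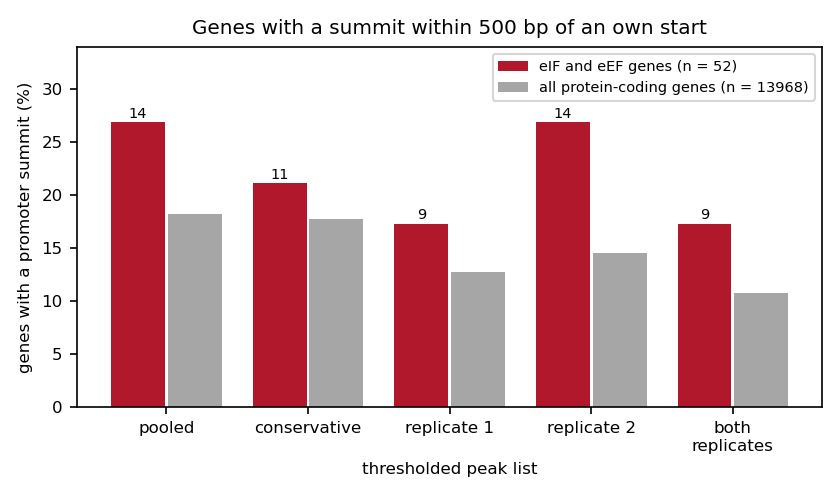
Share of genes (%) with a summit within 500 bp of an own start in each thresholded list, for the 52 factor genes (red, with the number of genes above the bar) and for all 13968 protein-coding genes (grey). The factor genes stand above all genes in each list, from 21.2% against 17.7% in the conservative list to 26.9% against 14.5% in replicate 2.

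The covered genes had a median signal value of 125, from 37.7 to 1206, against 112 for all covered protein-coding genes. The median of the factor genes moved with the distance and starts used. It was 92.2 at 250 bp, 87.0 at 100 bp and 92.2 with the most upstream start only. The median of all covered genes was not computed at those settings, so the side on which the factor genes fall there is not known. Of the 14, 8 were above the median of the list (94.4) and 6 below, and 12 had a deposited q-value below 0.05. Over all 2546 covered genes, 1536 had a summit above that median and 2005 had one with such a q-value. The median distance from the strongest summit to the nearest own start was 64.5 bp, against 137 bp for all covered genes. Within 150 bp lay 12 of 14 (85.7%, against 54.9%), and the strongest summit was upstream of the nearest own start in 13 of 14 (92.9%, against 87.9%). At eEF1alpha1, eIF2A, eIF3m and eIF5B that start is internal, and the summit lies inside the gene, downstream of its first start. Narrowing the distance to 100 bp kept 11 of the 14 covered factor genes and 961 of all 2546 covered protein-coding genes. The latter are 6.88% of all protein-coding genes.

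Some peaks were shared with a neighbour. Another gene's start lay within 500 bp of the strongest summit in 7 of the 14 genes, and nearer than the own start in 3 (eIF1, eIF3a and eIF6). These counts were not made over all covered genes, so they are not shown to be particular to the factor genes. A protein-coding gene transcribed the other way started within 500 bp upstream of 6 of 14 covered genes (42.9%) and of 13 of 38 uncovered ones (34.2%). Over all protein-coding genes these shares were 50.7% and 21.0%. Which of the neighbouring promoters a shared peak belongs to cannot be told apart from these lists.

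**Figure D4:**
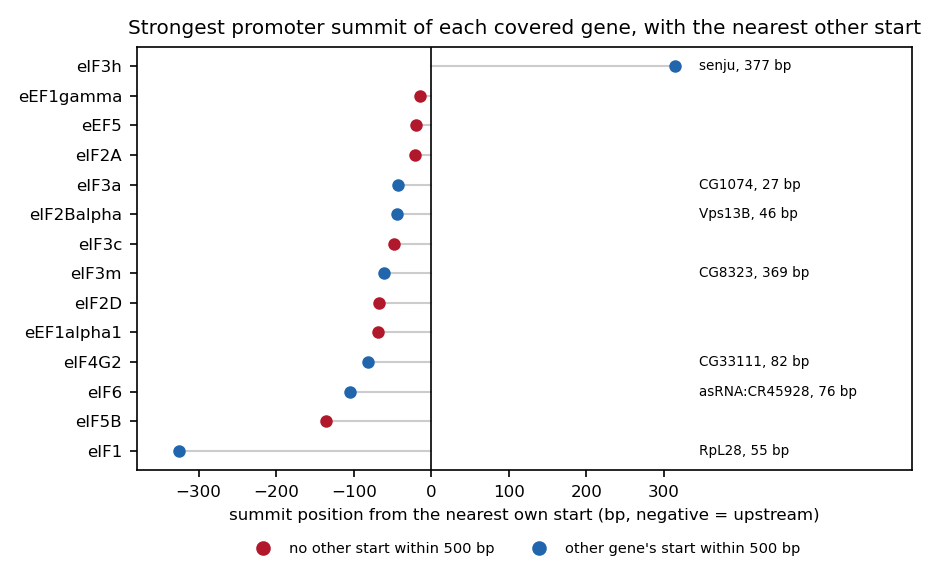
Position of the strongest summit relative to the nearest own start (bp, negative upstream) for the 14 covered genes, with lines drawn to the start. Blue points have another gene's start within 500 bp, named at the right with its distance from the summit, and all points but eIF3h lie upstream, from 15 bp at eEF1gamma to 326 bp at eIF1. At eEF1alpha1, eIF2A, eIF3m and eIF5B the nearest own start is internal and the summit lies inside the gene.

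By arm, 5 of 13 factor genes were covered on 2R (38.5%, against 17.8% of all genes there), 5 of 15 on 3R (33.3%, against 18.9%), 3 of 11 on 3L (27.3%, against 19.9%) and 1 of 5 on 2L (20%, against 17.8%). None of the 7 on X was covered, where the share of all genes was 16.9%. The 1 factor gene on chromosome 4, eIF4G1, was not covered, and the share of all genes there was 2.5%. Genes with a single annotated start were covered in 5 of 32 cases (15.6%, against 14% of all such genes), and those with more starts in 9 of 20 (45%, against 30%). More starts give a gene more places for a summit to fall, which touches every count above.

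Of the 38 uncovered genes, 25 had a ranked pooled peak within 500 bp. The same count was not made over all uncovered protein-coding genes. Whether it is high for a list of 136802 peaks is therefore not known. Among these 25 factor genes, besides eIF4A and eIF4EHP, the strongest peaks ran from 5.01 to 44.9. Their median was 28.2, and that of all 136802 ranked pooled peaks was 18.9. These are unlike measures, since the former takes only the strongest peak near each gene and the latter takes every peak. The 13 others had none, and 7 of them (eIF2alpha, eIF3g2, eIF3j, eIF4B, eIF4E5, eIF4E7 and eIF4G1) had none in either replicate. A missing peak says that nothing was ranked there, not that signal was absent.

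Other parts of the translation apparatus were counted by the same rule, which covered 18.2% of all protein-coding genes. Among cytosolic ribosomal protein genes 61 of 92 were covered (66.3%), among mitochondrial ones 23 of 73 (31.5%) and among aminoacyl-tRNA synthetase genes 11 of 35 (31.4%). A list of 33 other translation genes, of which 28 were found by name in the annotation, had 6 covered (21.4%), near the share of all genes. The list includes RpS6, which is also counted among the cytosolic ribosomal protein genes. The covered genes of this list were pAbp, the poly(A)-binding protein (298, at 499 bp from its start), eRF3, the release factor GTPase (136), Thor, the inhibitor of eIF4E (126), pelo, which rescues stalled ribosomes (107), mxt, a fly eIF4E-binding scaffold (87.7), and RpS6 (76.2, at 462 bp). The kinases Gcn2 and PEK, which phosphorylate eIF2alpha, and the release factor gene eRF1 were not covered.

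The promoters, taken as 250 bases before to 50 after the start of Ensembl's canonical transcript, were searched on both strands for fixed motifs. The DRE was in 14 of 52 factor promoters (26.9%), against 8.94% of all protein-coding promoters, and its core ATCGATA, which overlaps it, in 24 (46.2%, against 17.7%). The DRE share was 28.6% in covered and 26.3% in uncovered factor genes (4 of 14 and 10 of 38), and 12.3% over all covered genes. The letters TCTTT within 10 bp of the start on the gene strand, a reduced form of the TCT initiator known from ribosomal protein genes, stood in 8 factor promoters (15.4%, against 2.99%), among them eEF2, eEF5 and eIF5B. At the own start nearest the summit, these letters stood in 1 of the 14 covered factor genes, eIF3m (7.14%, against 3.69% of all covered genes), and neither in eEF5 nor in eIF5B. The M1BP core GGTCACACT was in 3 (5.77%, against 5.86%), the E-box CAGCTG in 4 (7.69%, against 17.9%), the TATA box TATAAA in 24 (46.2%, against 45.3%) and the homeodomain core TAATTA in 15 (28.8%, against 20%).

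Within 50 bp of the strongest summit, the DRE stood at 3 of 14 factor genes (21.4%, against 3.93% of all covered genes) and its core at 5 (35.7%, against 7.62%). These 5 genes are eIF2Balpha, eIF3a, eEF1gamma, eIF4G2 and eIF1, whose sequences are printed above. Among them only eEF1gamma had a summit with no other gene's start within 500 bp. At the others the motif cannot be assigned to the factor gene rather than to its neighbour. The eIF4G2 peak was in neither replicate list, and those of eIF2Balpha and eIF3a were in the replicate 2 list only. The homeodomain core TAATTA was at 0 of 14 (against 10.5%) and the TATA box at 1 (7.14%, against 21.4%). The median GC content of these windows was 45.0%, against 33.7% for all covered genes, a difference that moves with these motif counts and whose part in them was not tested. A match is a description of the letters, not of a bound site.

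**Figure D5:**
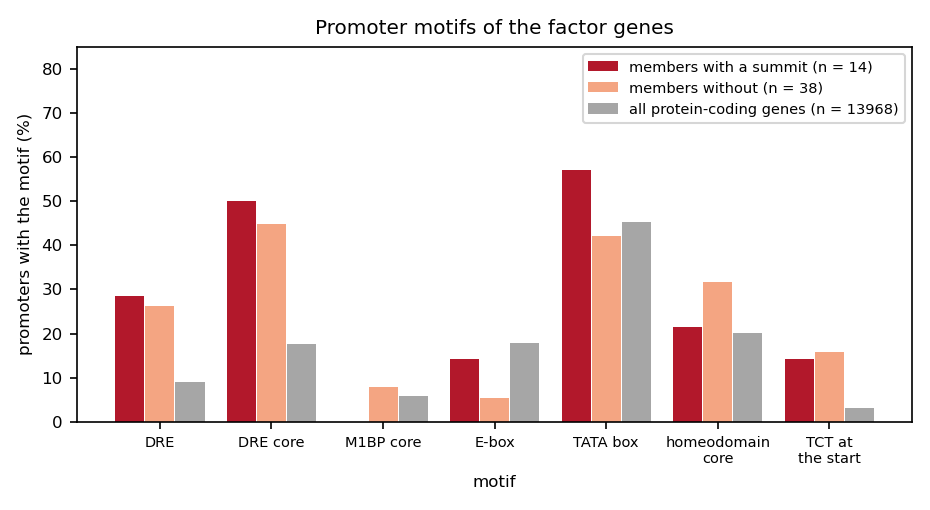
Share of promoters (%) that hold each motif, for the 14 covered factor genes (red), the 38 uncovered ones (light red) and all 13968 protein-coding genes (grey). The DRE is at 28.6%, 26.3% and 8.94% and the TCT form at 14.3%, 15.8% and 2.99%. The TCT value of covered genes is 2 of 14 at the canonical start and 1 of 14 at the start nearest the summit.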

How the data were processed

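ChIP-seq peaks of H2.0-eGFP on build dm6 were used from 2 replicates. The authors deposited a signal value, an IDR score scaled to a maximum, −log10 of a q-value and, in ranked lists, −log10 of the global IDR for each peak, as the narrowPeak columns and, per the labels, the file listings give them. The signal value, as deposited, is the peak caller's enrichment and is scaled within its own list only. Thresholded lists held scores of 830 or more, which stands for an IDR of 0.01. Which peak caller and aligner made them is not stated in the labels or files. Peaks were called by the authors on each replicate and on both together. Depth is unknown, so no interval for counting error could be given.

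Summits were placed on Ensembl release 115 of the same assembly with Python 3.11.15, numpy 2.4.6 and pandas 2.3.3, and the assignment was tested on simulated peaks. Starts were those of every annotated transcript. A peak in a replicate was matched to a pooled summit within 200 bp. Sequences come from the RefSeq genome of that build, where all 52 genes had the same coordinates. All members could be named. Other genes come from a list of translation genes or share a summit. The members, lists and motifs were chosen with earlier results of these data known. Alternatives were other peak lists, distances, starts and thresholds. Protein sequences were not used here.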

Additional observations from a re-analysis of the deposited data

Results flagged for a closer look

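The ranked pooled list held a peak past the score at eIF4EHP, with a signal value of 655, which the thresholded list leaves out. It likewise held a peak past the score at eIF4A, with a signal value of 60.3. The thresholded list of replicate 2 held a peak of 67.8 at eEF2, where the pooled list had no ranked peak within 500 bp. Each of these signals lies outside the pooled thresholded list on which the counts rest. Why the peaks at eIF4EHP and eIF4A were left out is not stated, so whether they are sound is not known.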

How the results depend on the processing

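The count of 14 covered factor genes was within 1.5 times of itself under 9 of 11 alternatives and fell to 8 when only peaks above the list's median signal were used, where the share of all genes was 11.0%. In the list of 1 replicate alone it ran from 9 without replicate 2 (12.8% of all genes) to 14 without replicate 1 (14.5%), and 12 of those 14 genes were among the 14 of the pooled list. The other alternatives gave 11 to 16 genes. The share of all genes moved as well, in 9 of 11 alternatives, so each count is given with it. They were 11 in the conservative list (all genes 17.7%), 13, 11 and 15 with distances of 250, 100 and 1000 bp (14.4%, 6.88% and 21.2%), 13 with the most upstream start (16.1%), 11 where the own start had to be nearest (13.3%), 12 with q-values below 0.05 (14.4%), and 16 in the ranked list past the score (18.6%), which adds eIF4A and eIF4EHP. The median signal lay between 87.0 and 138, on both sides of the list median of 94.4. For eIF3 the count of 4 was 2 in replicate 1 and above the list's median signal, and for eIF4E the count of 0 was 1 in replicate 2 and in the ranked list. No paired analysis was possible because there is only 1 group. Without reads, depth, counting error and the control could not be examined.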
